A study of Mus musculus with 20 samples.

Results

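The genotype-by-denervation interaction of gastrocnemius (GAS) muscle was examined gene by gene. It is the response to denervation (den minus sham) in Opg-/- mice minus the same response in WT mice, on the log2 scale, so that a positive value means that the gene went further up, or less far down, in Opg-/- muscle. All 20 of the 20 deposited samples entered it, 5 in each of 4 groups: Opg-/- den, Opg-/- sham, WT den and WT sham. The reads of 2 libraries, WT sham 1 and WT sham 2, varied from each other by less than counting noise gives, so that they were averaged and counted as 1 sample (called WT sham 1 here), which left 19 libraries.

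Opg-/- mice were homozygous for the Tnfrsf11b tm1Smoc allele, a knockout carried in every cell of the body and not in muscle alone, and WT mice were C57BL/6. All mice were males of 12 weeks. Each mouse had its sciatic nerve cut on the right side (den), while on the left the nerve was exposed and left whole (sham), and GAS muscle was taken on day 7. The sham muscle is therefore the other limb of an operated animal, and the sources do not say that a replicate number marks a mouse.

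Tnfrsf11b encodes osteoprotegerin (OPG), a secreted decoy receptor that binds the ligand RANKL (Tnfsf11) and keeps it from its receptor RANK (Tnfrsf11a), which signals to NF-kappaB through TRAF adaptors. OPG is best known for restraining bone resorption, and RANK is also present in skeletal muscle. Loss of the nerve sets off a program in muscle in which fetal acetylcholine receptor subunits and myogenic factors rise, contractile and mitochondrial genes fall, and proteins are marked by E3 ubiquitin ligases such as MuRF-1 (Trim63) and Atrogin-1 (Fbxo32) for breakdown by the proteasome.

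Values are called normalized expected counts here: the authors' RSEM estimates per gene, each library having been divided by a size factor of its own. Reads assigned to genes numbered 15186247 to 20102295 per library. The 10 most abundant genes held 10.3% to 13.3% of the values in den libraries and 22.7% to 27.0% in sham libraries. Transcripts of the targeted gene Tnfrsf11b were few, and as groups the libraries labelled Opg-/- were not lower, so that they did not bear out the labels. Its values were 1.89, 6.90, 4.86, 11.9 and 4.38 in the libraries labelled Opg-/- den and 6.06, 7.54, 9.58, 11.2 and 9.55 in those labelled Opg-/- sham. They were 5.15, 1.73, 3.21, 5.60 and 6.38 in WT den and 2.18, 1.18, 2.15 and 5.51 in WT sham. The sham groups did not overlap, with the libraries labelled Opg-/- higher, and the interaction was -1.19 (SE 0.61, limma adjusted p = 0.71). Since a gene has a single value, reads from parts outside the targeted one would count alike, and whether there were such reads was not tested.

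Only 1 gene of the 17948 tested passed the interaction test at an adjusted p under 0.05 (limma, two-sided, Benjamini-Hochberg), which is 0.00557% of them. This gene was Tet2, a dioxygenase that oxidizes 5-methylcytosine in DNA. By itself each response was broad: in Opg-/- mice 5125 genes rose (28.6% of those tested) and 4736 fell (26.4%), and in WT mice 4827 rose (26.9%) and 4604 fell (25.7%). Of the 8009 genes called in both genotypes, 8006 moved in the same direction. At an unadjusted p under 0.05 the interaction was positive for 630 genes (3.51%) and negative for 619 (3.45%).

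Tet2 (ENSMUSG00000040943, mm10 chr3:133463679-133545139, minus strand) had 575, 592, 650, 478 and 611 normalized expected counts in Opg-/- den, against 292, 333, 291, 310 and 357 in Opg-/- sham. In WT den it had 423, 498, 358, 382 and 388, against 348, 384, 440 and 393 in WT sham. Every Opg-/- den library lay above every Opg-/- sham library, while the WT den and WT sham libraries overlapped. Between genotypes, the lowest Opg-/- den library lay below the highest WT den library, and the highest Opg-/- sham library lay above the lowest WT sham library.

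The means were 581 ± 64.3 (SD, n = 5) in Opg-/- den, 317 ± 28.3 (SD, n = 5) in Opg-/- sham, 409.9 ± 54.6 (SD, n = 5) in WT den and 391 ± 37.9 (SD, n = 4) in WT sham. The response was 0.87 in Opg-/- mice (adjusted p = 4.8e-09) and 0.06 in WT mice (adjusted p = 0.63), and the interaction was 0.81 (SE 0.14, 95% interval 0.53 to 1.09, adjusted p = 0.047). Read by limb, Opg-/- exceeded WT by 0.50 in den muscle (adjusted p = 0.022) and lay 0.30 below it in sham muscle (difference -0.30, adjusted p = 0.24). These values rest on 241 to 803 reads per library.

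The size of the Tet2 interaction held in each of the other 30 settings tried, at 0.75 to 0.96, with no 95% interval reaching below 0.46, and Tet2 ranked first or second by p. Its adjusted p lay on both sides of 0.05, with a range of 0.0066 to 0.17. With 1 library left out, the call was kept without Opg-/- den 1, Opg-/- den 4, Opg-/- sham 5, WT den 2 or WT sham 1 (adjusted p 0.0066 to 0.048) and lost without any of the other 14 (0.072 to 0.17).

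**Figure D1:**
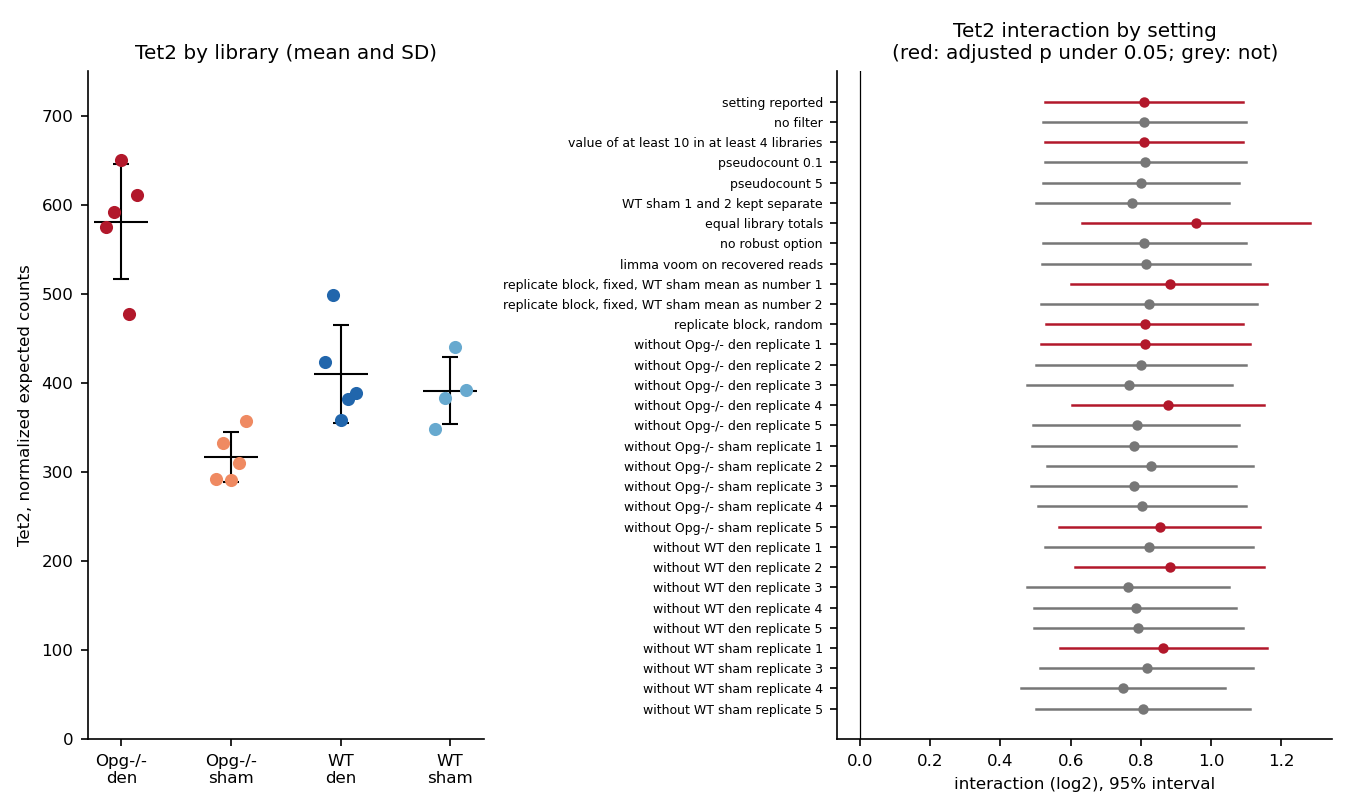
Left, Tet2 in normalized expected counts for each of the 19 libraries by group, with the mean and SD as bars. Right, the Tet2 interaction on the log2 scale with its 95% interval in the reported setting and in 30 others, in red where the adjusted p was under 0.05 and in grey where it was not; the estimates lie between 0.75 and 0.96 and all intervals lie above 0.

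Tet2, Inpp5k, Deptor and Rbm3 also had qRT-PCR assays in the study, and their primer pairs are given because they fix which part of each transcript such an assay reads. The primers were placed on GENCODE M21 transcripts (mm10). In the Tet2 forward primer the capitals mark the bases in exon 2, and the rest lies in exon 3; the other primers each lie within 1 exon and have no capitals.
Tet2 forward: GTGCTGCTGgattcattcaaag
Tet2 reverse: gtatggctgatgggagaaggtg
Inpp5k forward: cagcacggagacaggaacac
Inpp5k reverse: aggccacattccacgtcac
Deptor forward: atagacggcaccatctcaaaac
Deptor reverse: gtcggctaatttctgcatgagt
Rbm3 forward: cttcgtaggagggctcaactt
Rbm3 reverse: ctcccggtccttgacaacaac

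The Tet2 forward primer reaches over the junction of exons 2 and 3 (chr3:133488705-133514037, the intron included) and the reverse primer lies in exon 3 (chr3:133488589-133488610), for a product of 138 bases in 3 of the 10 annotated Tet2 transcripts. The Inpp5k pair lies in exons 1 and 2 (chr11:75631103-75631122 and chr11:75633079-75633097, 3 of 7 transcripts). The Deptor pair lies within exon 2 (chr15:55149373-55149394 and chr15:55149479-55149500, all 4 transcripts), and the Rbm3 pair in exons 2 and 3 (chrX:8145014-8145034 and chrX:8144657-8144677, 10 of 11 transcripts). The RNA-seq value of each gene is summed over its transcripts, so it covers more of Tet2 than the primers do.

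**Figure D2:**
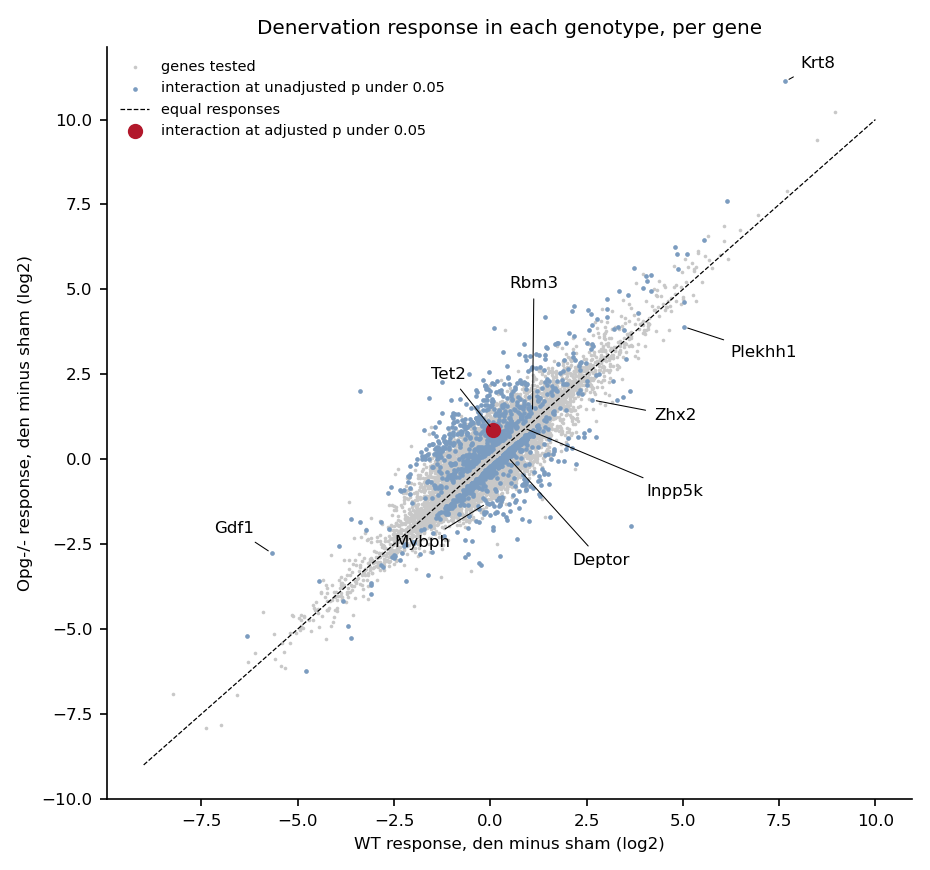
The response to denervation (den minus sham, log2) of each of the 17948 genes tested, with Opg-/- mice on the y axis and WT mice on the x axis; the dashed line marks equal responses. Genes at an unadjusted interaction p under 0.05 are blue and Tet2, the 1 gene called, is red at 0.87 in Opg-/- and 0.06 in WT mice.

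Inpp5k, a phosphoinositide phosphatase that dampens insulin signaling, rose about equally in both genotypes. It had 1512, 1529, 1632, 1708 and 1740 in Opg-/- den, 937, 846, 934, 715 and 838 in Opg-/- sham, 1450, 1320, 1323, 1386 and 1226 in WT den and 786, 802, 709.8 and 676 in WT sham. The den groups of the 2 genotypes did not overlap and the sham groups did. The response was 0.93 in Opg-/- and 0.85 in WT mice, and the interaction was 0.08 (SE 0.11, 95% interval -0.14 to 0.30).

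Rbm3, a cold-inducible RNA-binding protein, rose in both genotypes as well. Its values were 3921, 3773, 3554, 4202 and 4150 in Opg-/- den, 1683, 1228, 1422, 1573 and 1811 in Opg-/- sham, 2830, 2792, 2791, 3086 and 2488 in WT den and 1525, 1431, 1156 and 1153 in WT sham. Every Opg-/- den library lay above every WT den library, a difference of 0.49 (adjusted p = 0.026). The responses were 1.35 and 1.09 in Opg-/- and WT mice, and the interaction was 0.26 (95% interval -0.02 to 0.54, adjusted p = 0.71).

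Deptor, an inhibitor subunit of mTOR complexes, was lower in Opg-/- than in WT den muscle (difference -0.75, adjusted p = 0.00012), and the difference in sham muscle was -0.38 (adjusted p = 0.12). It had 1371, 1339, 1315, 1217 and 1457 in Opg-/- den, 1205, 993, 1396, 1408 and 1388 in Opg-/- sham, 2235, 2766, 2092, 2012 and 2212 in WT den and 1532, 1794, 1537 and 1773 in WT sham. The genotypes did not overlap in either limb. The response was 0.08 in Opg-/- mice (adjusted p = 0.49) and 0.44 in WT mice (adjusted p = 0.00030), and the interaction of -0.36 (SE 0.13, limma unadjusted p = 0.010) did not pass the test (limma adjusted p = 0.63). Deptor lies on chromosome 15, at 55112317 to 55259271, and Tnfrsf11b on the same chromosome at 54250619 to 54278484. The part that the region around the targeted gene plays in values of genes there was not tested.

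The 2 E3 ligases rose in both genotypes with wide scatter. Trim63 (MuRF-1) averaged 38863 ± 6973 in Opg-/- den, 26247 ± 7486 in Opg-/- sham, 37451 ± 7856 in WT den and 18917 ± 4698 in WT sham (SD, n = 5, 5, 5 and 4). Its response was 0.59 in Opg-/- and 0.995 in WT mice, and the interaction was -0.40 (95% interval -1.06 to 0.26, adjusted p = 0.79). For Fbxo32 (Atrogin-1) the responses were 0.94 in Opg-/- and 1.05 in WT mice, with an interaction of -0.11 (95% interval -0.68 to 0.45), whose sign turned with equal library totals.

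**Figure D3:**
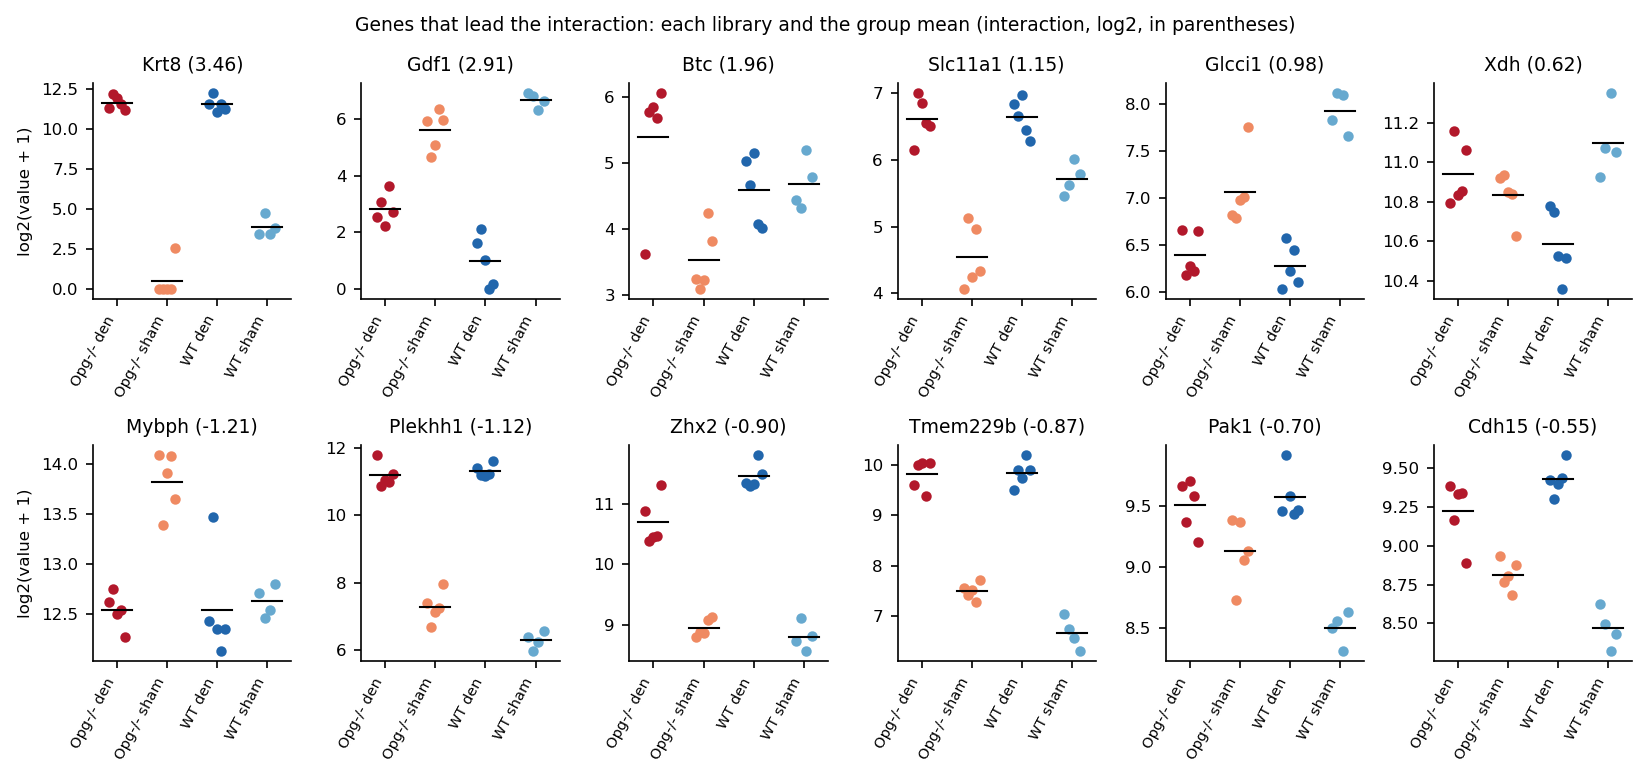
Values of 12 genes named for a small interaction p or for a call in another setting, as log2(value + 1), with 1 point per library and the group mean as a bar; the interaction (log2) follows each name. The upper row holds positive interactions and the lower row negative ones. In most panels the den groups of the genotypes lie close together and the sham groups apart.

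The 12 genes with the smallest p among those with a positive interaction (mean log2 value of at least 5) included Tet2, and the other 11 did not pass the adjusted test. Krt8, a keratin of simple epithelia that denervated muscle also makes, had the largest estimate of them. Its normalized expected counts were 2554, 4658, 3935, 3031 and 2266 in Opg-/- den, 0, 0, 0, 0 and 4.77 in Opg-/- sham, 2984, 4851, 2077, 2996 and 2407 in WT den and 9.79, 25.9, 9.67 and 13.2 in WT sham. The den groups overlapped throughout, and the sham groups lay apart at 0 to 4 reads in Opg-/- and 9 to 22 reads in WT libraries. The interaction was 3.46 (95% interval 2.06 to 4.87, adjusted p = 0.27), but its size depends on the pseudocount and was 6.07 with 0.1 and 1.82 with 5. Without Opg-/- sham 5 it passed the test at 3.97 (adjusted p = 0.00052). It also passed, in place of Tet2, in limma without the robust option (adjusted p = 0.030 for Krt8 and 0.0505 for Tet2), while limma voom gave it an adjusted p of 0.75.

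Slc11a1, a metal transporter of macrophage phagosomes, followed the same form. It had 70.0, 128, 114, 92.5 and 90.2 in Opg-/- den, 15.8, 33.9, 18.0, 30.2 and 19.1 in Opg-/- sham, 113, 99.7, 124, 86.8 and 76.5 in WT den and 42.9, 48.2, 63.4 and 54.0 in WT sham. Only the sham groups lay apart (difference -1.17, adjusted p = 0.026), and the interaction was 1.15 (SE 0.30, adjusted p = 0.47). Glcci1, a transcript induced by glucocorticoids, fell after denervation in both genotypes, by 0.67 in Opg-/- and by 1.65 in WT mice. Its sham levels were 112, 109, 125, 127 and 215 in Opg-/- and 226, 276, 273 and 201 in WT muscle, and the interaction was 0.98 (adjusted p = 0.47, or 0.044 without Opg-/- sham 5).

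Xdh is an enzyme of purine breakdown that makes uric acid. It had 1775, 2285, 1822, 1852 and 2137 in Opg-/- den and 1934, 1956, 1843, 1833 and 1579 in Opg-/- sham. Its values were 1756, 1718, 1472, 1314 and 1466 in WT den and 1942, 2149, 2610 and 2119 in WT sham. All Opg-/- den libraries lay above all WT den libraries, but the difference of 0.35 did not pass the test (adjusted p = 0.23), nor did that of -0.27 in sham muscle (adjusted p = 0.27). Its response was 0.11 in Opg-/- (adjusted p = 0.33) and -0.51 in WT mice (adjusted p = 3.9e-05), and the interaction was 0.62 (95% interval 0.35 to 0.89, adjusted p = 0.20).

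Of 7 other genes of this direction, 5 rose in both genotypes, more in Opg-/- mice by the point estimate, and 2 passed the test of the response in Opg-/- mice only. Ptgfrn, a membrane protein that binds tetraspanins, rose by 3.43 in Opg-/- and by 2.51 in WT mice. For Galnt7, which starts or extends O-linked glycans, the rises were 2.54 and 1.82. Npr3, the clearance receptor of natriuretic peptides, rose by 2.60 in Opg-/- and 1.88 in WT mice. Ugcg, which makes glucosylceramide, rose by 2.83 and 2.33. Vldlr, a receptor for lipoproteins and reelin, rose by 0.72 and 0.24, and its den groups did not overlap. Lims1, an adaptor of integrin adhesions, rose by 0.51 in Opg-/- mice and was 0.04 in WT mice (adjusted p = 0.71), and Myo5a, a motor of vesicle transport, rose by 0.84 in Opg-/- and was 0.23 in WT mice (adjusted p = 0.11). Their interactions lay between 0.47 (Lims1) and 0.92 (Ptgfrn), each at an adjusted p of 0.47.

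None of the 12 genes with the smallest p among negative interactions (mean log2 value of at least 5) passed the adjusted test. Cdh15 (M-cadherin), an adhesion protein of satellite cells and myoblasts, had 668, 575, 645, 646 and 474 in Opg-/- den, 489, 435, 447, 410.3 and 469 in Opg-/- sham, 688, 630.1, 676, 692 and 768 in WT den and 393, 360.0, 319 and 344 in WT sham. The sham groups lay apart, with Opg-/- higher, and the den groups overlapped. It rose by 0.41 in Opg-/- and by 0.96 in WT mice (interaction -0.55, 95% interval -0.81 to -0.29, adjusted p = 0.27).

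Itga7, the laminin receptor subunit of muscle, had a response of -0.01 in Opg-/- mice (adjusted p = 0.90) and rose by 0.40 in WT mice, with an interaction of -0.42. Pak1, a kinase acted on by Rac and Cdc42, rose by 0.37 in Opg-/- and 1.07 in WT mice. Its sham libraries held 667, 423, 661, 533 and 560 in Opg-/- and 362, 376, 317 and 397 in WT muscle, a difference of 0.63 without overlap (adjusted p = 0.047). Tmem229b rose by 2.31 in Opg-/- and by 3.17 in WT mice, and its sham groups differed by 0.83 (adjusted p = 0.037).

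Mybph, a myosin-binding protein of the thick filament, was the one of these 12 that fell by the adjusted test in Opg-/- mice and did not pass it in WT mice. It had 6280, 6878, 5772, 5941 and 4932 in Opg-/- den, 17476, 10746, 15387, 17391 and 12853 in Opg-/- sham, 5493, 11354, 5189, 4462 and 5200 in WT den and 6688, 5618, 5948 and 7143 in WT sham. The Opg-/- sham group stood above all but WT den 2. The response was -1.29 in Opg-/- (adjusted p = 5.4e-05) and -0.09 in WT mice (adjusted p = 0.78), and the interaction was -1.21 (SE 0.30, adjusted p = 0.47).

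Zhx2, a transcriptional repressor of liver genes, rose in both genotypes, to 1875, 1333, 1391, 1409 and 2527 in Opg-/- den, against 445, 471, 466, 538 and 556 in Opg-/- sham, and to 2604, 2513, 2562, 3571 and 2887 in WT den, against 424, 551, 378 and 452 in WT sham. Of the Opg-/- den libraries, all but Opg-/- den 5 lay below every WT den library. The interaction was -0.90 (SE 0.23, adjusted p = 0.47), and without Opg-/- den 5 it was -1.06 and passed the test (adjusted p = 0.038). Zhx2 too lies on chromosome 15, at 57694665 to 57839832. Hsph1, a heat shock protein of the HSP110 family, rose by 0.68 in Opg-/- and by 1.11 in WT mice. Slc44a2, a choline transporter-like protein, fell by 1.03 in Opg-/- and by 0.66 in WT mice, and Ubald2 fell by 1.13 and 0.72. Mmaa, which serves vitamin B12 metabolism, Armh3 and Serpinc1 (antithrombin) had interactions of -0.44, -0.41 and -0.83, all at an adjusted p of 0.47.

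**Figure D4:**
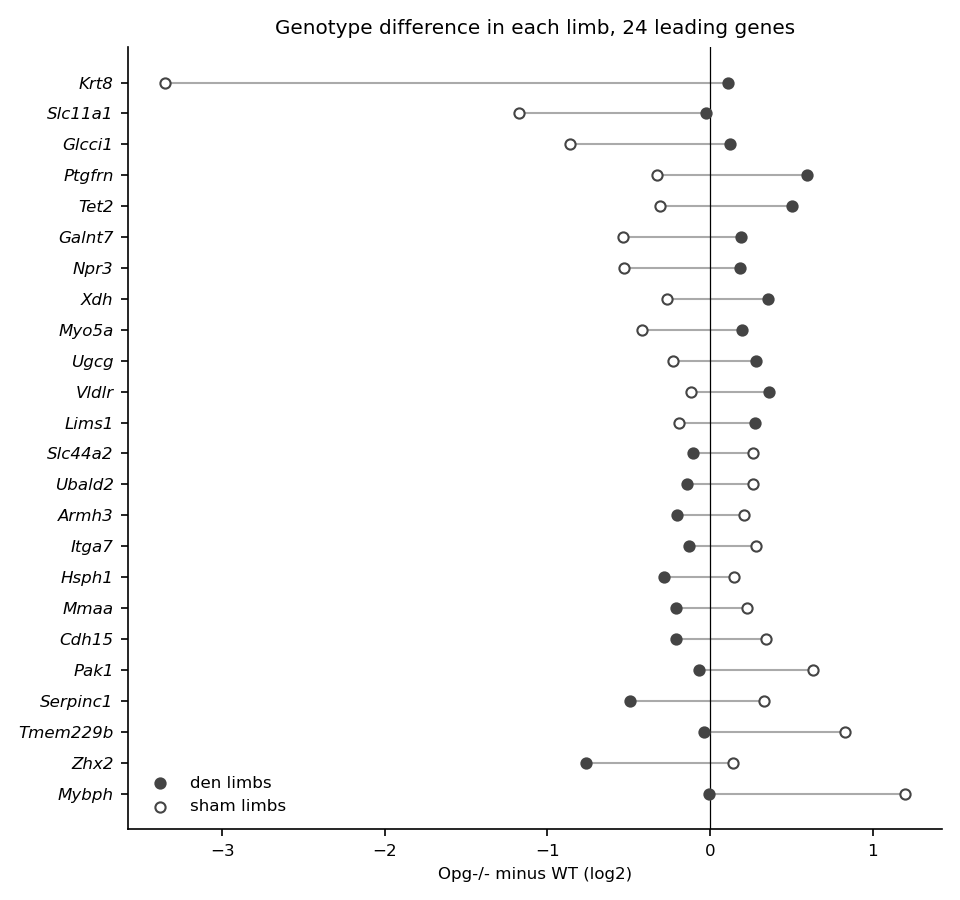
Opg-/- minus WT (log2) in den limbs (filled) and sham limbs (open) for 24 genes, 12 in each direction. The most positive interaction is at the top. These genes had the smallest interaction p among those with a mean log2 value of at least 5, predicted and clone names left out. The distance between the points of a gene is its interaction; for Krt8 the sham difference is -3.35 and the den difference 0.11.

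Read by limb, 11 genes differed between genotypes in den muscle (0.0613% of those tested) and 19 in sham muscle (0.106%). Of the 24 genes above, 1 (Tet2) was among those called in den muscle and 5 (Krt8, Glcci1, Slc11a1, Pak1 and Tmem229b) among those called in sham muscle. These limb differences are parts of the contrast that chose the genes, so the counts are a description. The sham difference was the larger for 15 of the 24. Over the genes at an unadjusted p under 0.05, the sham difference was the larger in 65.6% of the 630 positive ones and in 70.3% of the 619 negative ones, against 55.4% and 60.6% over all genes of each sign. The WT sham group had 4 libraries and the others 5.

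Genes that passed only in another setting add few names. Gdf1, a ligand of the TGF-beta family, had 4.76, 7.33, 3.72, 11.5 and 5.61 in Opg-/- den, 60.6, 24.2, 32.7, 81.2 and 61.8 in Opg-/- sham, 2.09, 3.38, 1.04, 0 and 0.12 in WT den and 121, 110.5, 78.2 and 97.6 in WT sham. The den groups lay apart, with Opg-/- higher, and the interaction was 2.91 (SE 0.57, adjusted p = 0.18). Gdf1 overlaps Cers1, a ceramide synthase gene read from the same strand, so that the authors' counting may split reads between them, and Cers1 itself had an interaction of -0.56 (adjusted p = 0.71). The levels of both are uncertain for that reason.

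Btc, a ligand of the EGF receptor, had 11.3, 53.4, 56.7, 50.05 and 65.7 in Opg-/- den, 8.49, 7.54, 8.38, 17.9 and 13.1 in Opg-/- sham, 31.8, 24.3, 34.5, 15.9 and 15.1 in WT den and 20.7, 18.8, 35.4 and 26.5 in WT sham. The library Opg-/- den 1 stood below the other 4 of its group. The interaction was 1.96 (adjusted p = 0.47) and 2.40 without that library (adjusted p = 0.048). Plekhh1 rose by 3.90 in Opg-/- and by 5.02 in WT mice (interaction -1.12), and its sham groups lay apart. Ahnak2, a large scaffold protein, rose by 3.26 and 2.60 in Opg-/- and WT mice, and its interaction of 0.65 was 0.89 without WT sham 1 (adjusted p = 0.025).

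There were 3 genes called in both genotypes in opposite directions, all of them close to the limit of detection. Mfrp, a membrane protein of the eye, had 3.80, 4.70, 3.43, 5.85 and 7.06 in Opg-/- den, 1.56 and 4 libraries at 0 in Opg-/- sham, 1.13 and 4 libraries at 0 in WT den, and 0, 8.16, 1.51 and 1.57 in WT sham. It rose by 2.27 in Opg-/- and fell by 1.25 in WT mice (interaction 3.52, adjusted p = 0.18), a size that was 7.69 with a pseudocount of 0.1 and 1.39 with 5. Without WT sham 1 it passed the test at 4.01 (adjusted p = 0.025). It overlaps C1qtnf5, whose interaction was 0.21 (adjusted p = 0.88). Cpne5 reached at most 4.35 and Ankrd61, which overlaps Eif2ak1 on the other strand, at most 10.5, with interactions of 2.43 and 3.41 (adjusted p = 0.47 and 0.27). The libraries were not strand-specific, so reads of overlapping genes cannot be told apart by strand.

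Gene lists are given by counts beside the same over all genes. Of all genes, 28.6% rose and 26.4% fell in Opg-/- mice, and 26.9% rose and 25.7% fell in WT mice. Their interaction was positive for 47.7%, at a median of -0.01. Scaling every library to the same total moved that median by 0.14, to 0.13, and turned the 630 positive and 619 negative genes into 1469 and 142. Lists are therefore given as their median less that of all genes, first with the deposited scaling and then with equal totals. Counts at an unadjusted p also changed with single libraries, so that their range with 1 library left out is given where it is wide.

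In the RANK and NF-kappaB pathway no gene was called. Tnfsf11, which encodes RANKL, was at 0 in 14 of the 19 libraries, reached at most 4.05 and was not tested. Tnfrsf11a had 6.62, 24.996, 23.5, 17.8 and 14.01 in Opg-/- den, 15.8, 10.1, 15.6, 15.7 and 7.16 in Opg-/- sham, 22.3, 17.3, 16.8, 11.2 and 16.7 in WT den and 5.44, 17.6, 9.67 and 13.2 in WT sham, and all groups overlapped. Of 22 pathway genes tested, 1 was positive and 1 negative at an unadjusted p under 0.05, against 3.51% and 3.45% of all genes, with a median 0.03 above all genes (0.04 with equal totals). With equal totals 4 were positive and 0 negative. Nfkbie, an inhibitor of NF-kappaB, rose by 1.58 in Opg-/- mice and was -0.01 in WT mice (interaction 1.59, adjusted p = 0.66). Rela, the p65 subunit, rose by 0.43 in Opg-/- and 0.70 in WT mice (interaction -0.27, adjusted p = 0.69).

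Among the 8 genes listed as enzymes of DNA methylation, Tet2 was the 1 member at an unadjusted p under 0.05 (without WT den 1, 2 were positive and 1 negative). Tet1 and Tet3, the other members of its family, had interactions of -0.82 (SE 0.52, adjusted p = 0.74) and 0.23 (SE 0.14, adjusted p = 0.74). For the methyltransferases Dnmt1, Dnmt3a and Dnmt3b the values were -0.18, -0.19 and -0.02, each at an adjusted p of at least 0.73. Dnmt3a fell by 1.18 in Opg-/- and by 0.99 in WT mice.

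Genes of the denervation program moved strongly in both genotypes. Of the 24 in the list, 20 rose and 4 fell in each, with median responses of 4.33 in Opg-/- and 4.46 in WT mice, and the median interaction lay 0.11 below that of all genes (0.10 with equal totals). At an unadjusted p under 0.05, 1 was positive (Krt8) and 4 were negative (1 and 1 with equal totals, and 2 negative without Opg-/- sham 5). Chrna1, the acetylcholine receptor alpha subunit, rose by 4.64 in Opg-/- and by 5.04 in WT mice (interaction -0.39, SE 0.18, adjusted p = 0.71). Myog, a myogenic transcription factor, rose by 4.02 and 4.09 (interaction -0.07, SE 0.32).

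Actc1, the cardiac actin, is in this list but fell. It had 348, 189, 295, 309 and 185 in Opg-/- den, 16616, 11618, 8788, 15441 and 3595 in Opg-/- sham, 497, 276, 254, 287 and 319 in WT den and 4919, 3513, 3033 and 4258 in WT sham. All Opg-/- sham libraries but Opg-/- sham 5 lay above the WT sham ones, and the den groups overlapped. It fell by 5.26 in Opg-/- mice and fell by 3.604 in WT mice (interaction -1.66, SE 0.52, adjusted p = 0.56).

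Most fast contractile and energy genes fell in both genotypes, and the median interactions of these lists lay below that of all genes. Of 18 fast contractile genes, 17 fell in Opg-/- and 15 in WT mice. Their median interaction lay 0.29 below all genes (0.28 with equal totals), and 4 were negative and 0 positive at an unadjusted p under 0.05. With 1 library left out, 3 to 13 were negative: 13 without WT sham 1, 11 without WT den 1, 10 without Opg-/- den 1 or Opg-/- sham 3, 8 without Opg-/- sham 4 and 7 without Opg-/- den 3 or WT den 2. Mylpf, the fast regulatory light chain, fell by 1.11 and 0.72 in Opg-/- and WT mice (interaction -0.39, adjusted p = 0.65), and Casq1, the calcium store protein of fast fibers, by 2.43 and 1.99 (interaction -0.43, adjusted p = 0.69). In sham muscle the list's median was 0.21 higher in Opg-/- than in WT mice, and in den muscle 0.09 lower. Slow contractile genes did not fall as a list: of 14, 4 fell and 3 rose in Opg-/- mice, and 3 fell and 6 rose in WT mice. Their median interaction lay 0.25 below all genes (0.24 with equal totals), with 1 negative at an unadjusted p under 0.05 (0 with equal totals, and 0 to 3 with 1 library left out).

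Of the 71 nuclear genes of oxidative phosphorylation, 70 fell in Opg-/- and 68 in WT mice. They all had a negative interaction with the deposited scaling, but 41 of them were positive with equal totals. Relative to all genes, all 71 lay below under both, by a median of 0.13 (0.12 with equal totals), and 1 of them (Ndufc1, a complex I subunit, interaction -0.32, adjusted p = 0.56) passed an unadjusted p of 0.05. Leaving out 1 library gave 1 to 13, 13 without Opg-/- sham 4, 9 without WT sham 1, 6 without Opg-/- den 1 and 5 without WT den 1. The 13 mitochondrially encoded genes lay 0.14 below all genes (0.13), with 2 negative at an unadjusted p under 0.05, and the 35 genes of the citric acid cycle and fatty acid oxidation 0.14 below (0.13), with 5. Both counts were 0 with equal totals. They were 0 to 6 and 2 to 16 with 1 library left out, the most without WT sham 1 and, at 5 and 12, without Opg-/- sham 4. All 71, all 13 and all 35 intervals lay within -1 and 1. Members of such a list share regulation and the same libraries, so a like sign in many of them is not that many observations. Mitochondrial transcripts held 5.47% to 6.17% of the values in den and 9.05% to 10.6% in sham libraries.

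The protein breakdown lists moved in the same direction in both genotypes. All 32 proteasome genes rose in both, by medians of 1.15 in Opg-/- and 1.22 in WT mice. Their median interaction lay 0.07 below all genes (0.06 with equal totals), and 2 (Psmc2 and Psmc5, both ATPase subunits of the base) were negative at an unadjusted p under 0.05, with -0.23 and -0.24. With equal totals 0 were, and 25 of the 32 had a positive sign. Of 20 atrophy ubiquitin ligases, 1 (Trim54, or MuRF-3, interaction -0.32, adjusted p = 0.64) was negative and 0 were positive at that p, against 0 negative and 3 positive with equal totals, and 3 negative without WT sham 1. All 30 autophagy and lysosome genes had intervals within -1 and 1, and Tfeb, the transcription factor of lysosomal genes, fell by 1.40 in Opg-/- and by 1.05 in WT mice (interaction -0.35, adjusted p = 0.66).

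Macrophage markers showed the widest shift of a list with all members on one side. All 18 had a positive interaction under both scalings, with a median 0.61 above all genes under each, 4 were positive at an unadjusted p under 0.05 and 0 were called. All 18 rose after denervation in Opg-/- mice and 10 in WT mice, where 28.6% and 26.9% of all genes rose, and the difference between these counts was not tested. Their summed level was 3333, 7830, 5447, 4587 and 5895 in Opg-/- den, 1800, 2693, 1954, 2278 and 1458 in Opg-/- sham, 7451, 6300, 6316, 3381 and 4289 in WT den and 2519, 3791, 3199 and 3850 in WT sham. The den groups overlapped throughout, and in sham muscle only Opg-/- sham 2 reached the range of the WT libraries. The list's median genotype difference was -0.01 in den and -0.73 in sham muscle. With 1 library left out, the median interaction was 0.44 to 0.78 at least 17 of the 18 were positive, and 3 to 8 were so at an unadjusted p under 0.05 (8 without Opg-/- den 1 or WT den 1).

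Cd68, a lysosomal protein of macrophages, had the smallest p of them. It had 317, 445, 333, 379 and 407 in Opg-/- den, 25.5, 30.2, 16.8, 39.1 and 13.1 in Opg-/- sham, 428, 471, 238, 252 and 273 in WT den and 36.0, 60.0, 50.5 and 57.3 in WT sham. The sham groups overlapped in 1 library on each side. Its interaction was 1.30 (SE 0.36, adjusted p = 0.47). Ccr2, a chemokine receptor of monocytes, rose by 1.74 in Opg-/- mice and was 0.58 in WT mice (interaction 1.16, adjusted p = 0.56), and Fcgr3, an Fc receptor, rose by 1.44 and 0.65 (interaction 0.79, adjusted p = 0.56). In whole muscle, fewer cells of a type and less RNA per cell cannot be told apart.

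Of 24 cytokine signaling genes, 3 were positive at an unadjusted p under 0.05, with a median 0.22 above all genes (0.23 with equal totals, where 6 were positive at that p). Socs3, a feedback inhibitor of cytokine receptors, had 193, 142, 202, 164 and 114 in Opg-/- den, 41.2, 28.9, 39.5, 31.3 and 45.4 in Opg-/- sham, 334, 218, 216, 216 and 220.0 in WT den and 102, 135, 69.8 and 79.4 in WT sham. The genotypes lay apart in both limbs with WT higher, and Opg-/- minus WT was -0.57 in den (adjusted p = 0.41) and -1.32 in sham muscle (adjusted p = 0.0032). Its interaction was 0.75 (SE 0.26, adjusted p = 0.59). Tnfrsf1b, a TNF receptor, rose by 1.38 in Opg-/- and by 0.73 in WT mice (interaction 0.65, adjusted p = 0.47).

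No marker of another cell type was called either. Of 11 adipocyte markers tested, 9 had a positive interaction, with a median 0.96 above all genes (0.97) and 1 (Plin1, the coat protein of fat droplets, interaction 1.44, SE 0.64, adjusted p = 0.71) at an unadjusted p under 0.05. That count was 3 with equal totals, with limma voom or with the WT sham pair kept separate, and 0 to 7 with 1 library left out (7 without Opg-/- sham 2, 4 without WT den 3). Among the 9 positive markers, Fabp4 (0.007) and Plin4 (0.03) lay close to 0. The summed adipocyte level fell in both genotypes, from a median of 39870 to 16690 in Opg-/- and from 33030 to 15390 in WT mice. By member, 3 of the 11 fell and 1 rose in Opg-/- mice, with a median response of -0.30. In WT mice 9 fell and 1 rose, with a median response of -1.29. Of all genes, 26.4% fell in Opg-/- and 25.7% in WT mice, and the difference between the counts was not tested. Of the 12 fibroblast and 29 extracellular matrix genes, 11 and 24 were positive, with medians 0.27 and 0.20 above all genes (0.28 and 0.21) and 1 each at an unadjusted p under 0.05 (Pi16 and Tgfb1). With 1 library left out, the fibroblast count at that p was 0 to 4 (4 without WT den 1) and the matrix count 0 to 7 (7 without Opg-/- den 1), and the matrix median itself was 0.068 to 0.35, with 17 to 28 positive. B cell and plasma cell markers went the other way, with 6 of 8 negative, a median 0.62 below all genes (0.63) and 0 at an unadjusted p under 0.05. Of 9 satellite cell markers 4 were positive, with a median 0.04 below all genes (0.03), and 2 (Cdh15 and Itga7) were negative at that p. Schwann cell and myelin markers summed to 889 to 2508 in Opg-/- den, 4220 to 5922 in Opg-/- sham, 949 to 1601 in WT den and 1980 to 7457 in WT sham. The lowest of the WT sham sums belonged to WT sham 1, and 0 of 14 members passed an unadjusted p of 0.05 (2 without Opg-/- den 1). The part of these cell types in the interactions above was not tested.

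**Figure D5:**
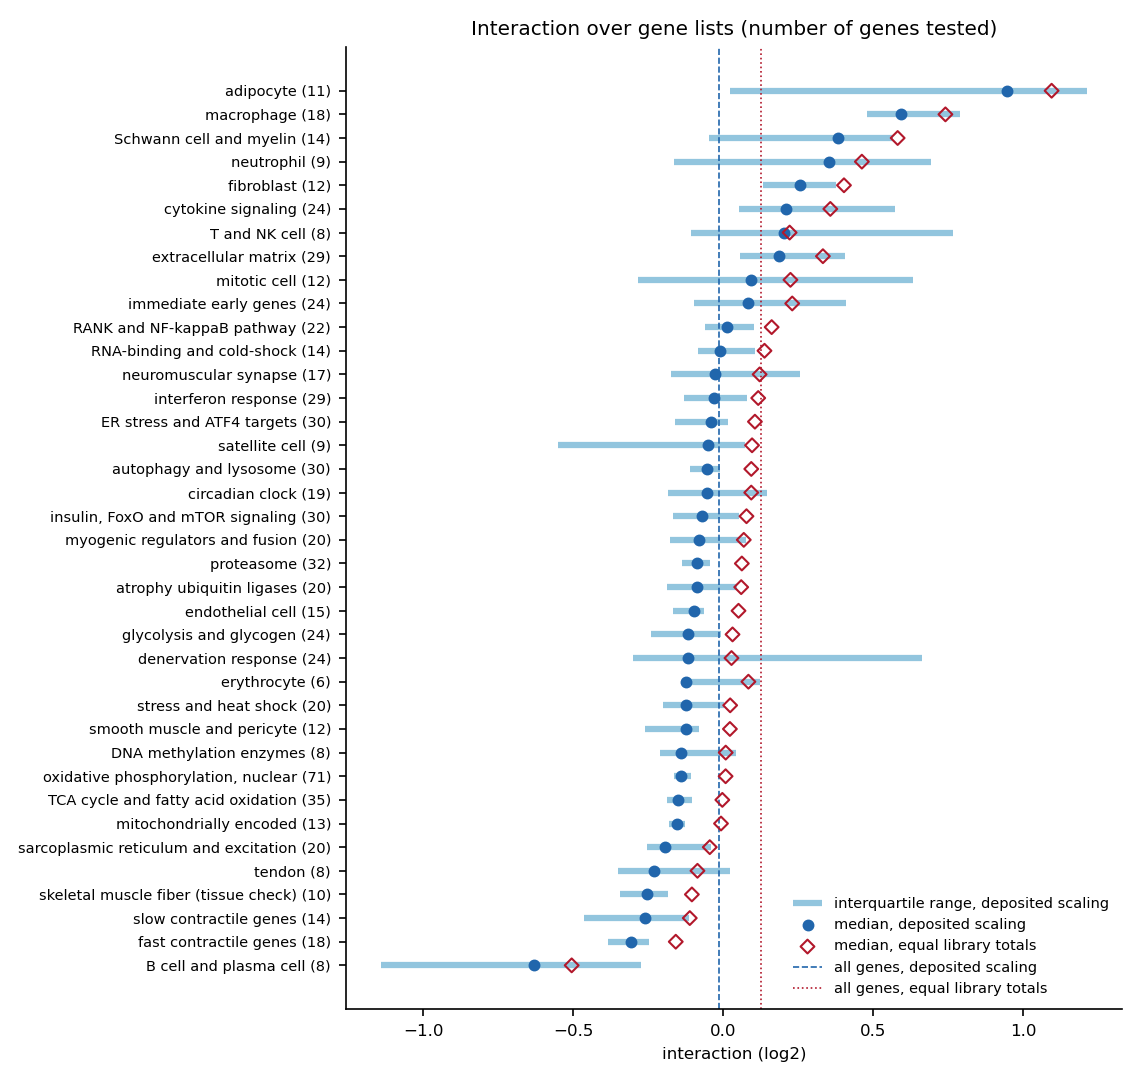
Interaction (log2) over each gene list, with the number of genes tested in parentheses: the median and interquartile range with the deposited scaling (blue) and the median with equal library totals (red diamonds). The dashed and dotted lines are the medians of all genes under each scaling, -0.01 and 0.13; adipocyte and macrophage markers lie to the right of both and contractile genes to the left.

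How small an interaction could be seen varied with the level of the gene. The median half-width of the 95% interval was 0.47 over all genes, 1.51 for the 4405 genes with a mean log2 value under 3, and 0.25 for the 5632 genes between 8 and 11. The interval lay within -1 and 1 for 60.0% of all genes, and for 92.2% of the 11409 with a mean log2 value of at least 5. For the remaining genes the interval reached past a difference of 1 on the log2 scale between the responses.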

How the data were processed

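RNA from GAS muscle was sequenced by the authors from libraries that keep no strand, mapped to mm10 with STAR and quantified per gene with RSEM (versions and annotation are not given in the sources used here). The deposited signal values were read as RSEM estimates divided by a size factor of each library: once divided by the value of 1 read, 87.1% to 88.1% of values above 0 were whole (tolerance 0.0001) and at least 99.95% were hundredths. Reads were not corrected for amplification, so depth covers counting error only. The sources do not say whether libraries of a group come from separate mice, and p measures the spread between these samples, which may be technical.

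Of 32285 genes (32235 of them found in GENCODE M21, with 40 names used more than once), a total of 17948 reached a value of 1 in 4 or more libraries and were fitted on log2(value + 1), a scale that understates the change of low genes. The test was limma 3.58.1 (R 4.3.3, trend and robust options, two-sided, 15 residual degrees of freedom) in a single fit of 4 group means, with Benjamini-Hochberg adjustment over all genes tested. WT sham 1 and WT sham 2 were averaged because chi-squared per degree of freedom was 0.338 between them, while 39 further pairs of libraries from the same group gave 7.14 to 27.5. Tables were made with pandas 2.3.3, numpy 2.4.6 and scipy 1.17.1, and figures with matplotlib 3.10.9, under Python 3.11.15, and the fit was tested on simulated data.

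Genes were named by a rule: those called in any setting with at most 10 calls, the 12 of smallest interaction p in each direction at a mean log2 value of at least 5 (predicted and clone names left out), Tnfrsf11b, Tnfsf11, Tnfrsf11a, Inpp5k, Deptor, Rbm3, Tet2, Trim63 and Fbxo32, those called in opposite directions at an absolute log2 fold change above 1, and the 2 of smallest p in each list. Other genes named (Tet1, Tet3, Dnmt1, Dnmt3b, Myog, Chrna1, Cdc42, Eif2ak1, Fcgr3, Cers1 and C1qtnf5) were added after their values were seen. The 38 lists (24 of pathways, 14 of cell type markers) held 732 genes, of which 723 were tested. The contrast, lists and rule were chosen with earlier results of these data known. Alternatives were other filters, pseudocounts of 0.1 and 5, equal library totals, limma without the robust option, limma voom on recovered reads, a replicate block, the WT sham pair kept separate, an added fold threshold, and each library left out. EBSeq, the study's test, was not run.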

Additional observations from a re-analysis of the deposited data

Results flagged for a closer look

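Tet2 was the 1 gene that passed a test of the difference between the denervation responses (interaction 0.81, limma adjusted p = 0.047). It was higher in den than in sham for all Opg-/- libraries. The call is a borderline one: it was made in 10 of 31 settings, the reported one included, at limma adjusted p values of 0.0066 to 0.17.

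Among 39 of the named genes in 4 groups each (156 groups), 13 groups held a library far from the others of its group. Some genes were named because they passed with 1 library left out, such as Btc without Opg-/- den 1. The count is therefore a description and is not set against chance. Of the 13 groups, 7 are given first. Opg-/- sham 5 held 4.77 of Krt8 against 0 in the other Opg-/- sham libraries, and 215 of Glcci1 against 109 to 127. Mybph was at 11354 in WT den 2 and at 4462 to 5493 in the other WT den libraries. Btc was at 11.3 in Opg-/- den 1, with 50.05 to 65.7 in the others. Mfrp, with values of a few reads, was at 1.56 in Opg-/- sham 1 and at 1.13 in WT den 5, with 0 in the others of both groups. Lims1 was at 679 in WT sham 1, below the 712 to 717 of the other WT sham libraries.

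The remaining groups were in other named genes, all but Tnfsf11 with an interaction or responses given above. Ubald2 was at 757 in WT den 4 (584 to 624 in the others), Hsph1 at 1536 in WT sham 4 (1230 to 1274 in the others) and Serpinc1 at 99.3 in Opg-/- sham 3 (63.5 to 68.4 in the others). Tnfsf11 was at 1.07 in WT sham 4 and at 0 in the others. Cpne5 was at 2.63 in Opg-/- den 5 (0.81 to 0.95 in the others) and at 2.80 in WT den 4 (0 in the others).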

How the results depend on the processing

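The count of interaction calls, 1 as reported, was 0 with no filter, with a pseudocount of 0.1 or 5, with the WT sham pair kept separate, with limma voom on recovered reads and with an absolute log2 fold change above 1 added. Without the robust option limma called Krt8 (adjusted p = 0.030) in place of Tet2 (adjusted p = 0.0505). At an unadjusted p under 0.05, limma gave 1156 to 1439 genes in these fits (1249 as reported). With 1 library left out there were 0 to 3 calls (3 without Opg-/- sham 5 or WT sham 1, 2 without Opg-/- den 1 or WT den 2, and 0 without any of 13 others), and 980 to 1761 genes at an unadjusted p. Requiring an absolute log2 fold change above 1 left 3883 calls in the Opg-/- response (9861 as reported), 3547 in the WT response (9431 as reported), 4 between den groups (11) and 11 between sham groups (19). The sham comparison also gave 55 calls with the WT sham pair kept separate, 35 with equal totals and 4 with limma voom, and with 1 library left out 2 (without WT sham 3) to 118 (without WT sham 1), against 5 (without Opg-/- den 2) to 15 (without WT sham 1) in den muscle. Of the interactions of single named genes, 3069 values kept their side of the threshold and their sign, 21 lost a call (Tet2), 11 gained one (in 9 genes) and 8 turned sign (in 4 genes). Those that turned were Fbxo32 (0.034 with equal totals, -0.22 to 0.042 with 1 library left out), Tnfrsf11a (-0.48 to 0.038 with 1 left out), Alas2 (-0.015 to 0.45) and Hbb-bt (-0.062 to 0.42). The causes of these changes were not tested.

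With a fixed replicate block in limma there were 4 interaction calls (Tet2, Mybph, Plekhh1 and Gdf1) with the WT sham mean under number 1, and 0 with it under number 2, with 1304 and 1591 genes at an unadjusted p under 0.05. With a random block there was 1 (Tet2). Deviations of den and sham libraries of the same number correlated at -0.12 to 0.15 over 13357 genes (4 of 10 pairs over 0.1). For 35 other pairs the range was -0.15 to 0.20. The averaged WT sham 1 was taken as the partner of both WT den 1 and WT den 2. In Opg-/- mice every den library correlated best with the sham library of its number. In WT mice this held for WT den 3 (0.15) and WT den 5 (0.095), and not for WT den 1, WT den 2 or WT den 4. This is a hint from the data that the numbers pair samples. By design each mouse had a den and a sham limb, and the labels number den and sham libraries alike. The sources do not say that a shared number marks a mouse, so the fit reported has no block and leaves out any such pairing. The block left 7 residual degrees of freedom.

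Precision was set by level: genes of a mean log2 value under 3 had a median 95% half-width of 1.51 for the interaction, against 0.22 to 0.25 above 8, and WT sham, with 4 libraries, is part of every interaction.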

Other observations

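Genes of membrane excitation and sugar use had mostly negative interactions with the deposited scaling (18 of 20 and 18 of 24), and none was called. With equal totals 8 of the 20 and 13 of the 24 were positive. Of 20 genes of the sarcoplasmic reticulum and excitation, 4 were negative and 0 positive at an unadjusted p under 0.05, with a median 0.18 below all genes (0.17 with equal totals). The count of negative ones was 2 with equal totals and 3 to 11 with 1 library left out (11 without WT sham 1). Cacnb1, a subunit of the calcium channel that senses voltage in muscle, rose by 0.34 in Opg-/- and by 0.71 in WT mice (interaction -0.36, limma adjusted p = 0.47), and Ryr1, the calcium release channel, fell by 0.39 in Opg-/- mice and was 0.02 in WT mice (interaction -0.41, limma adjusted p = 0.61). In the glycolysis and glycogen list of 24, 21 genes fell in Opg-/- and 20 in WT mice, against 26.4% and 25.7% of all genes. At an unadjusted p under 0.05, 4 of the 24 had a negative interaction. With equal totals 0 were negative and 1 positive at that p, and with 1 library left out 1 to 8 were negative (8 without WT den 1, 1 without Opg-/- sham 1, WT sham 3 or WT sham 4). Ldha, which makes lactate, fell by 3.12 in Opg-/- and by 2.85 in WT mice, with an interaction of -0.27 (limma adjusted p = 0.69).

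Some lists showed few or no members at an unadjusted p under 0.05. All 15 endothelial markers fell in both genotypes, where 26.4% of all genes fell in Opg-/- and 25.7% in WT mice. Of the 15, 0 reached that p, with a median interaction 0.08 below all genes (0.07 with equal totals). Among 29 interferon response genes 0 reached it, with a median 0.02 below all genes (0.01). The immediate early genes had 1 (0 to 2 positive and 0 to 3 negative with 1 library left out), Nr4a2, an orphan nuclear receptor, which was -0.90 in Opg-/- mice (limma adjusted p = 0.058) and fell by 2.24 in WT mice, with an interaction of 1.34 (limma adjusted p = 0.69). Among insulin, FoxO and mTOR genes, Igf1, a growth factor of muscle, had an interaction of 0.50 (limma adjusted p = 0.69) and a genotype difference of 0.02 in den and -0.48 in sham muscle. Utrn, a relative of dystrophin found at the synapse, had a response of 0.01 in Opg-/- mice and fell by 0.41 in WT mice (interaction 0.42, limma adjusted p = 0.70).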
